A study of Rattus norvegicus with 6 samples.

Results

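The Sprouty and Spred genes were followed in Schwann cells, the glia of peripheral nerves, after stimulation with the growth factor neuregulin 1 (NRG1). The family was taken by gene symbol and has 7 members, namely the Sprouty genes Spry1, Spry2, Spry3 and Spry4 and the Spred genes Spred1, Spred2 and Spred3. All 7 were among the 17327 genes in the count files, and 6 of them were among the 9740 genes with enough counts to be tested, Spry3 being the exception. The samples were primary cultures from the sciatic nerves of adult female Wistar rats, 3 mock and 3 NRG1, and each of the 3 independent cultures gave 1 sample of each kind, numbered 1 to 3. NRG1 samples received 10 nM recombinant soluble NRG1β1 for 6 h, and mock samples the buffer of the ligand, PBS with bovine serum albumin. Both kinds were confluent cells that had grown with 10% serum and 63 ng/mL of glial growth factor by the labels (recombinant soluble NRG1β1, the same ligand as the stimulus, by the methods of the study), and had then been starved for 18 h in 2% serum. Forskolin, which raises cAMP, was present in the medium of both kinds at 10 μM throughout, so that the comparison shows the effect of NRG1 on cells already under forskolin. RNA was measured by sequencing of poly(A) RNA, as raw counts of reads per gene.

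Sprouty and Spred proteins are inhibitors of the Ras-ERK cascade, which carries signals from receptor tyrosine kinases such as the ErbB2-ErbB3 pair that binds neuregulin on Schwann cells. They share a cysteine-rich C-terminal domain that holds them at membranes. Sprouty proteins bind adaptors and the ubiquitin ligase Cbl, while Spred proteins carry an N-terminal EVH1 domain through which they bring the Ras GTPase activator neurofibromin, the product of Nf1, to the membrane. Several of these genes are transcribed in response to ERK activity, which makes them a negative feedback loop.

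Counts on genes ranged from 6821590 to 15475018 per library, and the floor of detection, set at 3 counts, was between 0.194 and 0.444 CPM, which are counts scaled to library size. Of 6 Schwann cell markers, 5 were well counted in every library, among them Sox10, a transcription factor of this lineage, while Gap43 had at most 5 counts. Summed over the 6, their level was between 2850 and 6380 CPM in mock and between 2750 and 5830 CPM in NRG1 samples, with the lowest value of each kind in culture 1. Both libraries of culture 1 stood apart from the other 4 in markers of other cells. The fibroblast marker Thy1 was at 1240 and 1120 CPM in mock and NRG1 sample 1 and had 0 counts in the other 4 libraries, and Dcn, which encodes the matrix protein decorin, was at 598 and 419 CPM against 0 counts. The sum over all 5 fibroblast markers was 2710 CPM in mock sample 1 and 2360 CPM in NRG1 sample 1, and at most 1.61 CPM elsewhere in NRG1 and under 1 CPM elsewhere in mock samples. The 4 markers of smooth muscle and pericytes summed to at most 205 CPM in mock and 182 CPM in NRG1 samples, both in culture 1, of which Cnn1, a smooth muscle calponin, gave 149 and 135 CPM. Ptprc and Cd3e of immune cells and Pecam1 and Cdh5 of endothelial cells had 0 counts in all 6 libraries. Since culture 1 differed in this way, the text states where leaving it out moved the call of a tested member or named list gene. Fold changes without it are given for some genes only. In bulk RNA a difference in the share of a cell type and a difference in RNA per cell cannot be told apart.

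**Figure D1:**
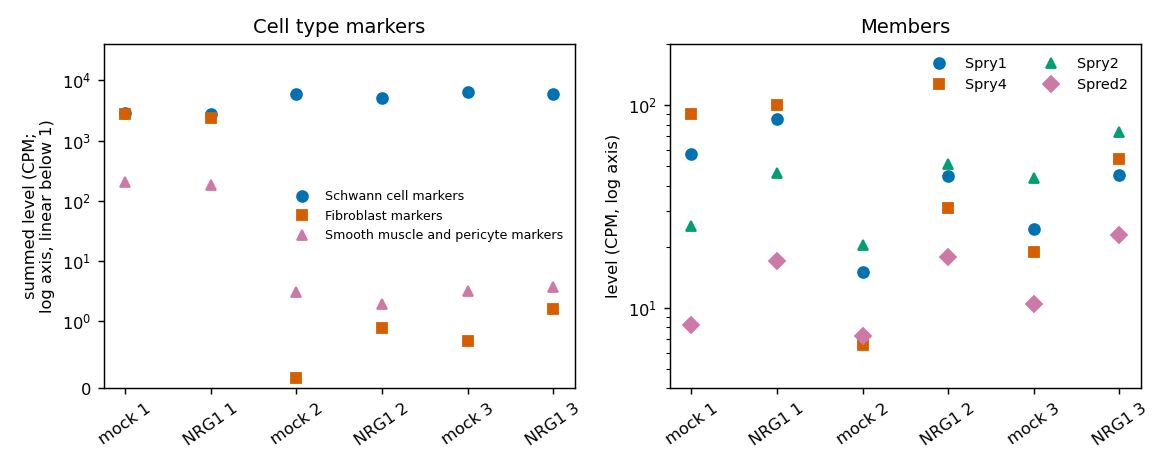
Left, summed CPM of 3 marker lists in each of the 6 libraries on an axis that is logarithmic above 1 and linear below. Right, CPM of Spry1, Spry4, Spry2 and Spred2 in the same libraries on a log axis. Fibroblast markers reach 2710 CPM in culture 1, where Spry1 and Spry4 also have their highest levels, and Spry2 and Spred2 do not.

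Most of the family was higher after NRG1. Of the 6 tested members, 5 rose (adjusted p of 0.01 or less) and none fell, while 6.31% of all tested genes rose and 5.51% fell by the same rule (edgeR's quasi-likelihood test with the culture as a block, Benjamini-Hochberg adjustment over 9740 genes). The 5 were Spry1, Spry2, Spry4, Spred2 and Spred3, each with a fitted increase between 1.95-fold and 2.22-fold. Spry4 and Spred2 also had a log2 fold change over 1, which the study asks for in addition and which 1.56% of all tested genes met in this direction. The study applied its rule to its own DESeq2 results. In the DESeq2 fit run here, Spry4 did not pass (adjusted p = 0.105). The median log2 fold change of the 6 tested members was 0.97, against -0.03 over all tested genes. Without the block no member passed, and the lowest adjusted p among them was 0.172. The number that rose was 4 when culture 1 or culture 2 was left out and 3 without culture 3. Since gene lengths for the files' genome build were not used here, levels are compared between samples of a gene and not between genes.

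**Figure D2:**
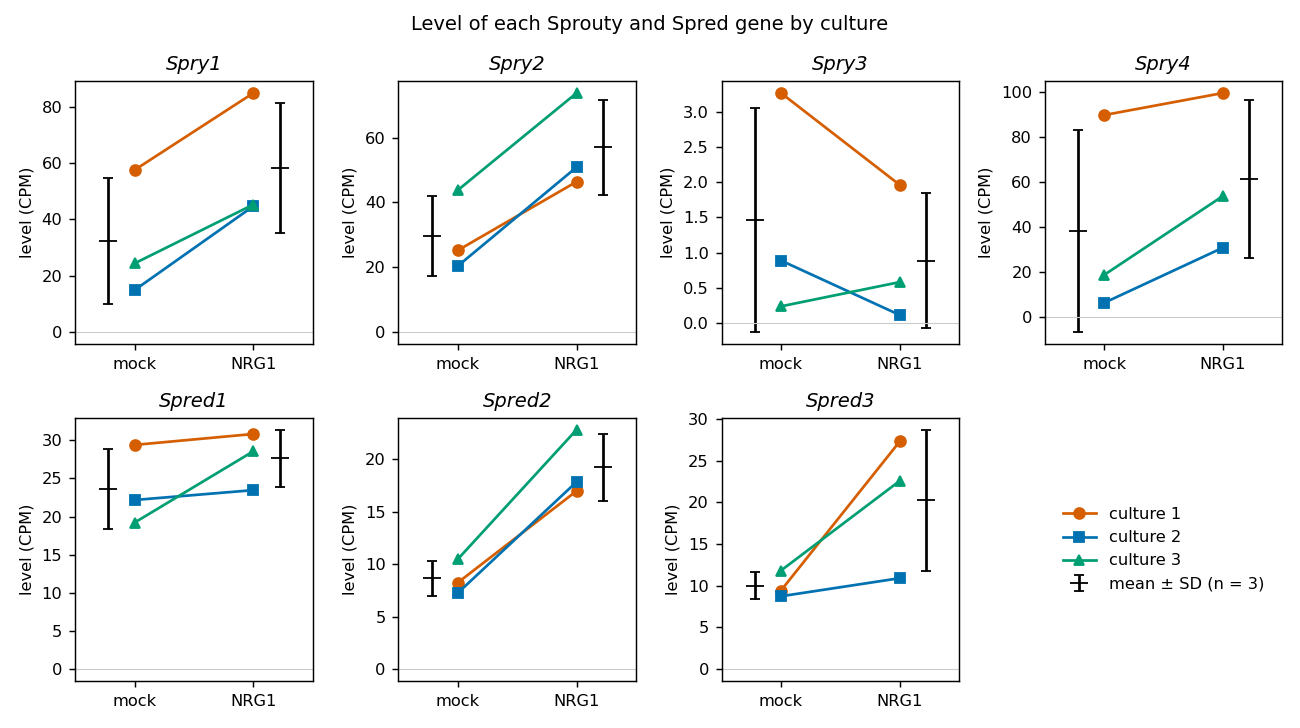
Level in CPM of each of the 7 genes in mock and NRG1 samples, with a line for each of the 3 cultures and the mean ± SD (n = 3) beside the points. For Spry2 and Spred2 all 3 NRG1 samples lie above all 3 mock samples, as they do for 9.79% of all tested genes. Spry4 of culture 1 is almost as high in mock (89.8 CPM) as in NRG1 (99.6 CPM).

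Spry2, one of the best studied inhibitors of growth factor signalling to ERK, was at 25.2, 20.4 and 43.8 CPM in mock samples 1, 2 and 3 and at 46.4, 50.9 and 73.7 CPM in NRG1 samples 1, 2 and 3. The lowest NRG1 sample lay above the highest mock sample, as it did for 9.79% of all tested genes. Its mean rose from 29.8 ± 12.3 to 57.0 ± 14.7 CPM (SD, n = 3). The log2 fold change was 0.96 ± 0.14 (SE, adjusted p = 0.000308 in edgeR). Within cultures 1, 2 and 3 the increase was 1.84-fold, 2.49-fold and 1.68-fold. The fit without culture 1 gave 1.01, close to the value with it.

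Spry1 and Spry4 responded less evenly. Spry1, which restrains signalling from several receptor tyrosine kinases, among them Ret, was at 57.5, 14.9 and 24.4 CPM in mock and at 84.8, 44.7 and 45.3 CPM in NRG1 samples. Mock sample 1 was thus higher than NRG1 samples 2 and 3, and the groups overlapped although the gene was higher in NRG1 in all 3 pairs. Its fitted log2 fold change was 0.97 ± 0.17 (SE, adjusted p = 0.00101 in edgeR), and it was 1.21 without culture 1.

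Spry4, the Sprouty member that also inhibits the kinase Tesk1, was the most variable of the tested members. It was counted 687, 44 and 240 times in mock samples 1, 2 and 3, which is 89.8, 6.51 and 18.9 CPM. In the NRG1 samples it was counted 762, 276 and 836 times, which is 99.6, 31.0 and 53.9 CPM. Mock sample 1 had 13.8 times the level of mock sample 2 and 4.75 times that of mock sample 3, and among NRG1 samples the highest level was 3.21 times the lowest. The spread between cultures was therefore smaller after NRG1, a difference that was not tested. The change within a culture was 1.11-fold in culture 1, where the mock level was already high, 4.76-fold in culture 2 and 2.85-fold in culture 3. The log2 fold change over all cultures was 1.15 ± 0.26 (SE, adjusted p = 0.0061 in edgeR). It was 1.81 (adjusted p = 2.98e-14) without culture 1. The call was lost without culture 2 (0.79, adjusted p = 0.0237) and without culture 3 (0.98, adjusted p = 0.0107). Fits that leave out a culture rest on fewer pairs, and their adjusted p-values cannot be set beside those of the full fit. The smallest over all genes was 5.8e-48 without culture 1, against 6.15e-08 with all cultures (edgeR). DESeq2 with the same block gave 1.31 with an adjusted p of 0.105, so that the call for Spry4 depends on the tool as well. Spry1 and Spry4 were highest in both libraries of culture 1, in which the fibroblast markers summed to 2710 and 2360 CPM. The part of these cells in the levels of Spry1 and Spry4 was not tested. Both genes were higher in NRG1 than in mock within cultures 2 and 3. There Thy1, Dcn and Lum had 0 counts, while Pdgfra had 1 and 9 counts in mock and 8 and 25 in NRG1 samples 2 and 3.

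Counts of a pair of genes within a library give a further view, in which library size cancels. The ratio of Spry4 to Spry2 counts was 3.56 in mock sample 1 and 0.32 and 0.43 in mock samples 2 and 3. With NRG1 it was 2.15 in culture 1, lower than in mock, and 0.61 and 0.73 in cultures 2 and 3, higher than in mock. The ratio of Spry1 to Spry2 moved in the same directions, from 2.28 to 1.83 in culture 1, from 0.73 to 0.88 in culture 2 and from 0.56 to 0.61 in culture 3. These ratios were chosen after the levels had been seen and were not tested.

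Spry3, the least studied Sprouty gene, was near the limit of detection. Its counts were 25, 6 and 3 in mock and 15, 1 and 9 in NRG1 samples, so that it was at or under the floor of 3 counts in mock sample 3 and NRG1 sample 2. It was higher in NRG1 in 1 of the 3 pairs. When the filter on low counts was dropped, its log2 fold change was -0.52 ± 0.56 (SE, adjusted p = 0.615), so that no change was detectable at this depth. Its value was -1.08 (adjusted p = 0.241) without culture 3 and -0.21 (adjusted p = 0.828) without culture 2. Its highest counts in each group, 25 and 15, were again those of culture 1.

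Among the Spred genes, Spred2 gave the most even response. Spred2, an inhibitor of Raf activation by Ras, was at 8.23, 7.24 and 10.5 CPM in mock and at 17.0, 17.9 and 22.8 CPM in NRG1 samples. The groups did not overlap, as was so in this direction for 9.79% of all tested genes. Its mean was 8.65 ± 1.65 CPM in mock and 19.2 ± 3.15 CPM in NRG1 samples (SD, n = 3). The increase was 2.06-fold, 2.46-fold and 2.18-fold in cultures 1, 2 and 3, and the fitted log2 fold change was 1.15 ± 0.17 (SE, adjusted p = 0.000308 in edgeR). Culture 1 was not set apart here, since its levels were between those of cultures 2 and 3 in mock and the lowest of the 3 with NRG1. Leaving out any 1 culture gave log2 fold changes between 1.09 and 1.20, all past the threshold.

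Spred3, whose Kit-binding domain is not functional, was at 9.41, 8.72 and 11.8 CPM in mock and at 27.3, 10.9 and 22.6 CPM in NRG1 samples. NRG1 sample 2 stayed within the mock range, and the increase was 2.90-fold in culture 1, 1.25-fold in culture 2 and 1.91-fold in culture 3. The order of the cultures was thus the reverse of that for Spry4, which changed least in culture 1 and most in culture 2. The log2 fold change was 0.96 ± 0.21 (SE, adjusted p = 0.00414 in edgeR), and the call was lost without culture 1 (0.68, adjusted p = 0.0283) and without culture 3 (0.99, adjusted p = 0.0156).

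Spred1, the member mutated in Legius syndrome, did not pass the test. It was at 29.4, 22.2 and 19.2 CPM in mock and at 30.8, 23.5 and 28.6 CPM in NRG1 samples, with overlapping groups. Its log2 fold change was 0.25 ± 0.15 (SE, adjusted p = 0.249 in edgeR), and the 95% interval ran from -0.07 to 0.57. The ratios within cultures 1, 2 and 3 were 1.05, 1.06 and 1.49, so that most of the difference came from culture 3, and without it the log2 fold change was 0.10. The 95% interval of Spred2, from 0.79 to 1.51, lay above that of Spred1. The ratio of Spred2 to Spred1 counts, which does not depend on library size, was 0.28, 0.33 and 0.55 in mock and 0.55, 0.76 and 0.80 in NRG1 samples, higher with NRG1 in each culture. The difference between both genes was not tested.

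**Figure D3:**
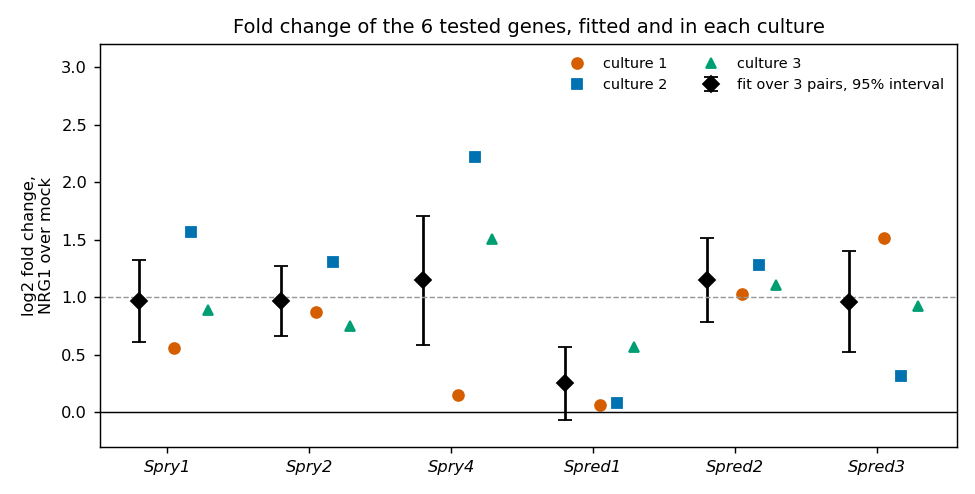
Log2 fold change of NRG1 over mock for the 6 tested genes. Diamonds are the fit over 3 pairs with its 95% interval and coloured symbols the log2 ratio within each culture (log2 CPM with a prior count of 2). The dashed line marks 1. The ratios of Spred2 lie close together, between 1.03 and 1.28, and those of Spry4 between 0.15 and 2.22.

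**Figure D4:**
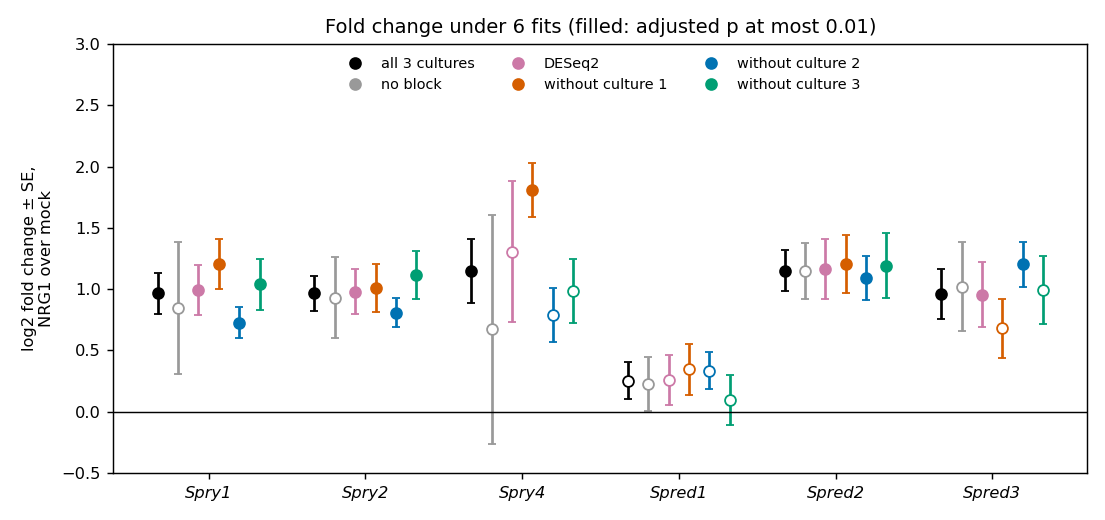
Log2 fold change ± standard error of the 6 tested genes under 6 fits, with filled symbols where the adjusted p is at most 0.01. Spry1, Spry2 and Spred2 are filled in every fit with the block, Spry4 and Spred3 in part of them, and Spred1 in none.

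The promoters of the members were read from RefSeq tables of the GRCr8 build, which held all 7 by symbol in 8 windows, as Spry2 has a pair of starts. GRCr8 is not the build of the counts, so the sequences describe the genes and not the reads. In the 250 bases before each start, 8 short motifs were searched on both strands. Among these were the ETS motifs CGGAAG and AGGAAG, bound by ETS factors, of which ERK activates only some. The next were the cAMP response element core TGACGT, its shorter form TGACG, the AP-1 site TGAGTCA and the E-box CACGTG. The last were the TATA box TATAAA and CATTCAT, which was added after the windows had been read. Every TGACGT also counts as a TGACG. Spred2, the gene with the most even increase, is shown with Spred1, which did not pass the test, and with Spry4, which had the widest range of responses. Capitals mark the matches other than the TATA box. The windows are chr14:98350327-98350576 on the plus strand for Spred2, chr3:124436980-124437229 on the plus strand for Spred1 and chr18:30702547-30702796 on the minus strand for Spry4.
Spred2: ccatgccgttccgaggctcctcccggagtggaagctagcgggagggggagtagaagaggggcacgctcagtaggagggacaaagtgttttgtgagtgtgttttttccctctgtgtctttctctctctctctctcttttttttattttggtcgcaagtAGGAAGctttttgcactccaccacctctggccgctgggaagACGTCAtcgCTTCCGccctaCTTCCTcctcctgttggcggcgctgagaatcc
Spred1: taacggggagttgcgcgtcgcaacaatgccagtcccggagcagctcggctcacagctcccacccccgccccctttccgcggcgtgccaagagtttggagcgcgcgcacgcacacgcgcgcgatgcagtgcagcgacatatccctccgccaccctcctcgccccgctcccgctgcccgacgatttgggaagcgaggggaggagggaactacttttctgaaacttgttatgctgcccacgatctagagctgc
Spry4: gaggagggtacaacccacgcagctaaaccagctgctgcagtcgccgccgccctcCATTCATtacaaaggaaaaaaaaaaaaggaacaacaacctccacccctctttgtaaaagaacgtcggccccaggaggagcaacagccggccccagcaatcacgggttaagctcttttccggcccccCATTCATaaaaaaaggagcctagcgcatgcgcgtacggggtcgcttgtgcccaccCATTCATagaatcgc

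The Spred2 window held CGGAAG at 1 place, AGGAAG at 2 places and TGACGT at 1 place, all within the last 93 bases before the start. CGGAAG was found in 13.9%, AGGAAG in 29.5% and TGACGT in 6.95% of all 33469 promoter windows of this length. All 3 together were in 0.406%, but this combination is the one found in Spred2, so that its share is not a test. The Spred1 window held none of the 8 motifs. Spry4 held CATTCAT at 3 places, which begin 196, 70 and 15 bases before the start. At least 1 copy was in 3.14% and at least 3 copies were in 0.0478% of all windows. This motif and the count of 3 were taken from the Spry4 window itself, so that these shares are not a test either. Of the other windows, the upstream one of Spry2 held TGACG, found in 18.2% of all, and that of Spry3 held TATAAA, found in 12.9%, while those of Spry1 and Spred3 and the downstream one of Spry2 held none. AP-1 sites and E-boxes, present in 4.05% and 5.59% of all windows, were in none of the 8. An ETS match of either kind was in 39.4% of all windows, and in 1 of the 5 genes that rose. These matches describe the sequence and say nothing of binding. Arhgap26, which lies next to Spry4 in the same annotation and was looked up afterwards, had a log2 fold change of 0.43 ± 0.17 (SE, adjusted p = 0.0881 in edgeR), and Ggn, next to Spred3, had one of -0.31 ± 0.24 (SE, adjusted p = 0.389). Genes or pseudogenes that overlap Spred1, Spred3 and Spry3 in GRCr8 were not analysed here, and the counts do not separate strands.

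The family was then set beside other genes of the pathway. The 14 partners and regulators of Sprouty and Spred proteins include Nf1, the ubiquitin ligases Cblb, Siah2 and Nedd4, the kinases Tesk1, Dyrk1a and Mknk1 and the adaptor Grb2. Of the 13 in the files all were tested and none was called in either direction, with a median log2 fold change of 0.07. Nf1 had a log2 fold change of -0.25 ± 0.16 (SE, adjusted p = 0.269). In this list the count at an unadjusted p under 0.05 was 2, for Cblb and Ptpn11. DESeq2 called none of them either. Without culture 1, Cav1, which encodes caveolin-1, rose (log2 fold change 0.71, adjusted p = 0.00118) and Cblb fell (-0.78, adjusted p = 0.00423).

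Of the 19 genes of the ERK pathway core, from ErbB receptors to ERK, 18 were tested and 16 were not called. Map2k1, which encodes the ERK kinase MEK1, rose with a log2 fold change of 0.59 ± 0.12 (SE, adjusted p = 0.00326), and Gab1, a docking adaptor, fell by 0.52 on the log2 scale (SE 0.13, adjusted p = 0.00929). The fall of Gab1 was not called when any 1 culture was left out, and no gene of the list rose without culture 3. The median of the list was 0.02.

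Other feedback inhibitors of the same cascade moved in part with the family. Of 11 such genes 8 were tested, of which 3 rose and none fell. These were Dusp6 and Dusp7, ERK phosphatases of the cytoplasm, and Dusp4, a phosphatase of the nucleus. Dusp6 had a log2 fold change of 1.23 ± 0.13 (SE, adjusted p = 1.96e-05), Dusp4 of 1.15 ± 0.14 (SE, adjusted p = 5.72e-05) and Dusp7 of 0.77 ± 0.12 (SE, adjusted p = 0.000484), all higher in NRG1 in 3 of 3 pairs. Errfi1, an inhibitor of ErbB receptors, had a value of -0.18 (adjusted p = 0.436) and Dusp5 of 0.07 (adjusted p = 0.825).

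Among 13 genes known as outputs of ERK signalling, 6 rose and 3 fell. Etv5, an ETS factor, rose with a log2 fold change of 1.65 ± 0.14 (SE, adjusted p = 5.24e-06) and Fosl1, an AP-1 subunit, with 1.69 ± 0.15 (SE, adjusted p = 8e-06). Fos, an immediate-early AP-1 subunit, fell by 1.61 on the log2 scale (SE 0.12, adjusted p = 2.21e-06) and Epha4, an ephrin receptor, fell by 1.45 ± 0.14 (SE, adjusted p = 1.02e-05). The other gene that fell was Egr1, an immediate-early factor, with log2 ratios of -0.02, -1.97 and -1.46 in cultures 1, 2 and 3 (log2 fold change -1.13, adjusted p = 0.00711). Its value was -1.70 without culture 1, and its call was lost without culture 2 (adjusted p = 0.0376), without culture 3 (adjusted p = 0.0353) and in DESeq2 (adjusted p = 0.143). Of the list, 5 genes rose without culture 2 or without culture 3, 7 rose with RLE normalization, and 2 fell in DESeq2 and without culture 3. The list thus moved in both directions at 6 h, with a median of 0.62. Schwann cell markers had 2 genes that fell, S100b and Cdh19, and none that rose among 5 tested. The call for S100b was lost without culture 1 (adjusted p = 0.0571) and without culture 3 (adjusted p = 0.136). Cdh19, a cadherin of this lineage, fell most, by 1.10 on the log2 scale (SE 0.14, adjusted p = 7.93e-05). Each of the 4 marker lists of other cells had 1 tested gene, and none of these was called.

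**Figure D5:**
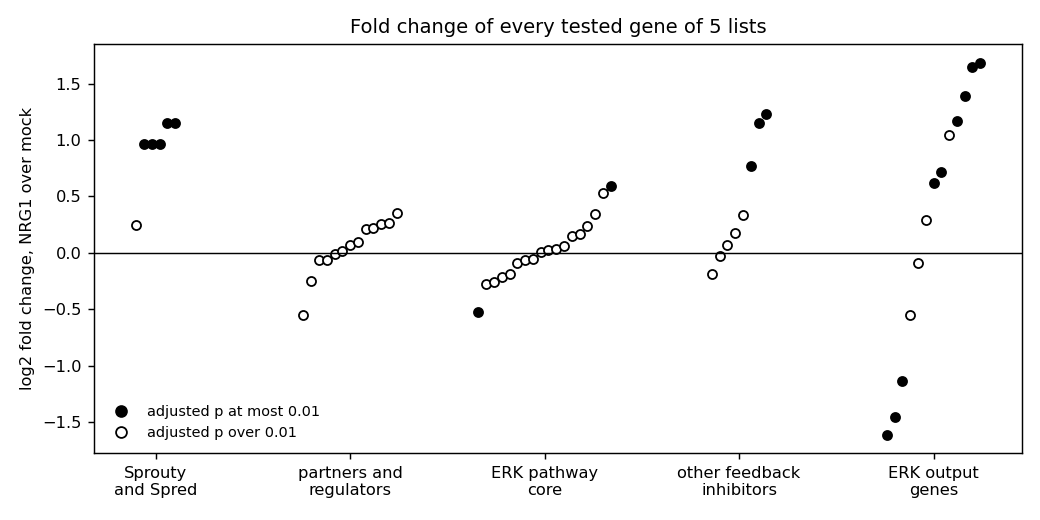
Log2 fold change of NRG1 over mock for every tested gene of 5 lists, sorted within each list, with filled symbols where the adjusted p is at most 0.01. The 6 tested Sprouty and Spred genes lie between 0.25 and 1.15. The partners lie between -0.55 and 0.35 (median 0.07) and the pathway core between -0.52 and 0.59 (median 0.02).

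Across the 6 samples, the levels of the members fell into different patterns. Spry1 and Spry4, both highest in culture 1, had a Pearson r of 0.97 on log2 CPM, and Spry2 and Spred2 had an r of 0.94. Spry2 and Spry4 had an r of only 0.42. Spred1 was closer to Spry1 (r = 0.82) and Spry4 (r = 0.83) than to Spry2 (r = 0.18). Spred3 had an r of 0.77 with Spred2 and 0.72 with Spry2. The samples share cultures, culture 1 sets the range of Spry1 and Spry4, and no correlation was computed over the 4 samples of the other cultures. The tested genes most like Spred2 were Actn4, an actin cross-linker (r = 0.991), Etv5 (r = 0.991) and Camkk2, a calmodulin-dependent kinase (r = 0.991). Those most like Spry4 were Kctd10 (r = 0.996), the ETS factor Etv4 (r = 0.992) and Adamts14 (r = 0.991). Spry1 was most like Kpna1 (r = 0.997), Polr3k (r = 0.994) and Rftn1 (r = 0.990), and Spry2 most like Mapk14 (r = 0.993), Coro1c (r = 0.990) and Aamp (r = 0.990). Spred1 was most like Celf1 (r = 0.996), Pomt2 (r = 0.993) and Spon1 (r = 0.987), and Spred3 most like Impdh1 (r = 0.991), Ppp1r16a (r = 0.981) and Tnik (r = 0.968). A like pattern over the 6 samples was not a like response to NRG1 in every case. The log2 fold change of Kctd10 was 0.10 (adjusted p = 0.6) and that of Etv4 1.05 (adjusted p = 0.0102), or 1.67 and called without culture 1. The top genes of Spry1, Spry2, Spred1 and Spred3 had adjusted p-values of 0.131, 0.111, 0.078 and 0.219 and were not called. All of those named for Spred2 rose, namely Actn4 (adjusted p = 0.000451 in edgeR), Etv5 (5.24e-06) and Camkk2 (0.00161). Rftn1 (0.000484), Coro1c (0.00288) and Tnik (0.000195) rose as well, and the other like genes were not called with all cultures. Between 0.503% and 2.86% of all tested genes had an r over 0.9 with a given member.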

How the data were processed

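RNA of 3 mock and 3 NRG1 samples was analysed. Per the labels and methods, the authors aligned reads to rn5 (TopHat 2.0.10), used htseq on the RefSeq transcriptome and deposited raw counts, 1 file per library. The 5 htseq summary lines of each file, between 50.1% and 53.0% of its total, were left out. The library kit does not mark strand, so antisense transcripts cannot be separated.

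Genes were filtered with filterByExpr (minimum count 10, 9740 kept and 7587 removed), normalized by TMM and tested with edgeR 4.0.16 in R 4.3.3, by the quasi-likelihood test. The replicate number was a block, following the paired design the study used, and Benjamini-Hochberg adjustment covered all tested genes. Levels are TMM-normalized CPM, standard errors are the log2 fold change over the root of F, and log2 ratios used a prior count of 2. DESeq2 1.42.0, RLE normalization, other filters and thresholds, no block and the omission of each replicate were the alternatives. The scripts were tested on simulated counts.

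The same number marks the same experiment. Deviations from group means correlated across genes with r of 0.906, 0.672 and 0.81 for equal numbers, and of at most 0.514 for others. The members, lists and tests were chosen with earlier results of these data known. Named genes are the members, list genes past both thresholds (at most 4 per list by p) and the 3 genes most like each tested member. Other genes, such as Nf1, Errfi1, Dusp5, Dusp7, Egr1, Cav1, Cblb, Map2k1, Gab1 and Arhgap26, were named after their values had been seen. A few markers of the planned list are not reported here. Promoters came from RefSeq (GRCr8). Intervals and floors cover counting error only where they rest on counts of 1 library.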

Additional observations from a re-analysis of the deposited data

How the results depend on the processing

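No alternative turned the direction of a tested member. Without the replicate block no gene of the whole table passed (0 rose and 0 fell, smallest adjusted p = 0.139 in edgeR), so that the counts of members and of every list were 0. The log2 fold changes without the block were 0.85 for Spry1, 0.93 for Spry2, 0.67 for Spry4, 1.15 for Spred2 and 1.02 for Spred3, with larger standard errors since the spread between cultures then enters the error. DESeq2 with the block kept Spry1, Spry2, Spred2 and Spred3 and gave 1.31 for Spry4, no longer past the threshold (adjusted p = 0.105). Over the alternatives with all cultures, the adjusted p of Spry4 ranged from 1.24e-08 (edgeR, no filter on low counts) to 0.831 (edgeR, no block).

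Leaving out each replicate gave from 3 to 4 members that rose and 0 that fell, with log2 fold changes from 0.79 to 1.81 for Spry4 and from 0.68 to 1.20 for Spred3. Over all genes it gave from 408 to 590 that rose and from 253 to 601 that fell, the lowest counts without replicate 3. For the partners it gave from 0 to 1 in each direction, and for the pathway core from 0 to 2 that rose and 0 that fell.

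With a log2 fold change over 1 in addition, 2 members, 152 genes in all and 0 of the pathway core rose, and 186 genes in all and 0 of the core fell. At an adjusted p of at most 0.05, 1124 genes rose and 1136 fell, with 2 of the core that rose and 1 of the partners that fell. With no filter on low counts 848 genes rose and 857 fell, 2 of the core rose and 1 of the partners fell. RLE normalization and a minimum of 10 counts in every sample changed no call of a member. Genes under about 10 counts are limited by depth, as was Spry3 in cultures 2 and 3. In culture 1 Spry3 had 25 counts in mock and 15 in NRG1, so that it also differed between cultures.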
